A study of Mus musculus with 4 samples.

Results

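Colon intraepithelial lymphocytes (IEL) from mice that had received antibiotics and had then been recolonized with bacteria were compared with colon IEL from unmanipulated mice. The comparison uses 2 of the 4 arrays of the series and covers every gene measured, 22180 in all. Each side was 1 Affymetrix whole-transcript mouse array, so each difference below is a description of a pair of arrays with no replicate, error or test. All mice were C57Bl/6 animals of 8 to 10 weeks. The study's text gives a pool of 5 male and 5 female mice, in one place for each sample and in another as 10 mice in total. The recolonized mice drank ampicillin and neomycin (0.01% each) with vancomycin and metronidazole (0.05% each) for 7 days, and the return of bacteria then lasted 7 days. That return is described both as co-housing with untreated littermates and as used bedding from them. Since there was no group with antibiotics only, effects of the drugs and of recolonization cannot be told apart. For both groups, cells shaken off the minced colon were passed through magnetic negative selection for T cells, with an antibody against the epithelial surface protein EpCAM added. The sample's own labels name no tissue or cell type for the recolonized array and no tissue for the unmanipulated one, and the colon is taken from the study's design text.

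IEL sit within the gut's epithelial layer, and in the colon many are conventional T cells that carry CD4 or CD8. Their numbers and activity are known to depend on the gut bacteria. Preparations of this kind can also carry epithelial cells, stromal cells, B cells and blood. Epithelial cells answer bacteria with mucus, antimicrobial proteins and lectins.

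Values are log2 levels as deposited, and a difference is the recolonized level minus the unmanipulated level of the same gene. A difference of 1 is 2-fold. Genes below the middle level of both arrays, 2.39 on the recolonized and 2.41 on the unmanipulated array, lie near the low end of the scale and are called below the floor. Differences of genes whose dimmer value lies there are compressed. Of 12443 genes above the floor, 751 (6.04%) were higher by 2-fold or more on the recolonized array and 381 (3.06%) were lower by 2-fold or more, 9.1% in either direction. The remaining 11311 were within 2-fold. Over all measured genes the median difference was 0.03, and over those above the floor it was 0.13, the shift that centring removes. The higher share of the genes past 2-fold was 66.3% as deposited, 51.6% after quantile normalization, 48.2% after centring and 46.6% after a lowess correction against level. Bright genes leaned towards the recolonized array: at a mean level of 6 to 8 the median difference was 0.49. At a mean level of 2 to 3, 94 of 5327 genes were higher by 2-fold or more and 150 lower. At 4 to 6, 352 of 2576 were higher and 72 lower. Counts of list members below are to be read beside these shares. Cytosolic ribosomal protein genes had an SD of 0.58 across genes. Between the probe sets of genes that had a pair of them, the differences had an SD of 0.79. These SDs describe spread within this pair of arrays and do not measure error between pools of mice. The values nearest the 2-fold line were 1.00041 for Ndufa1 and 1.00081 for Slmap on its inner side and 0.99994 for Ndufa6 and 0.99978 for Grin3b on its outer side. On the lower side they were −1 for H2-M10.2 and −1.00265 for Zfyve27, against −0.99899 for Sft2d2 and −0.99897 for Fam90a1a.

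The labelled cell type was checked first. Cd3e, which signals for the T cell receptor, was at a log2 level of 9.43 on the recolonized and 9.17 on the unmanipulated array. Its partner chain Cd3g was at 8.77 and 8.03. Ptprc, the leukocyte protein CD45, was at 9.01 and 8.71. These genes were bright on both arrays and at 2.61 to 3.72 on the array that the labels call lamina propria T cells. That array carried epithelial genes instead, so its content went against its label. It is called the lamina-propria-labelled array below and serves only as a place where epithelial genes were bright. Markers of other cells were present on both colon IEL arrays and at different levels, as the following paragraphs give. Fewer cells of a type and less RNA per cell cannot be told apart in such bulk samples.

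**Figure D1:**
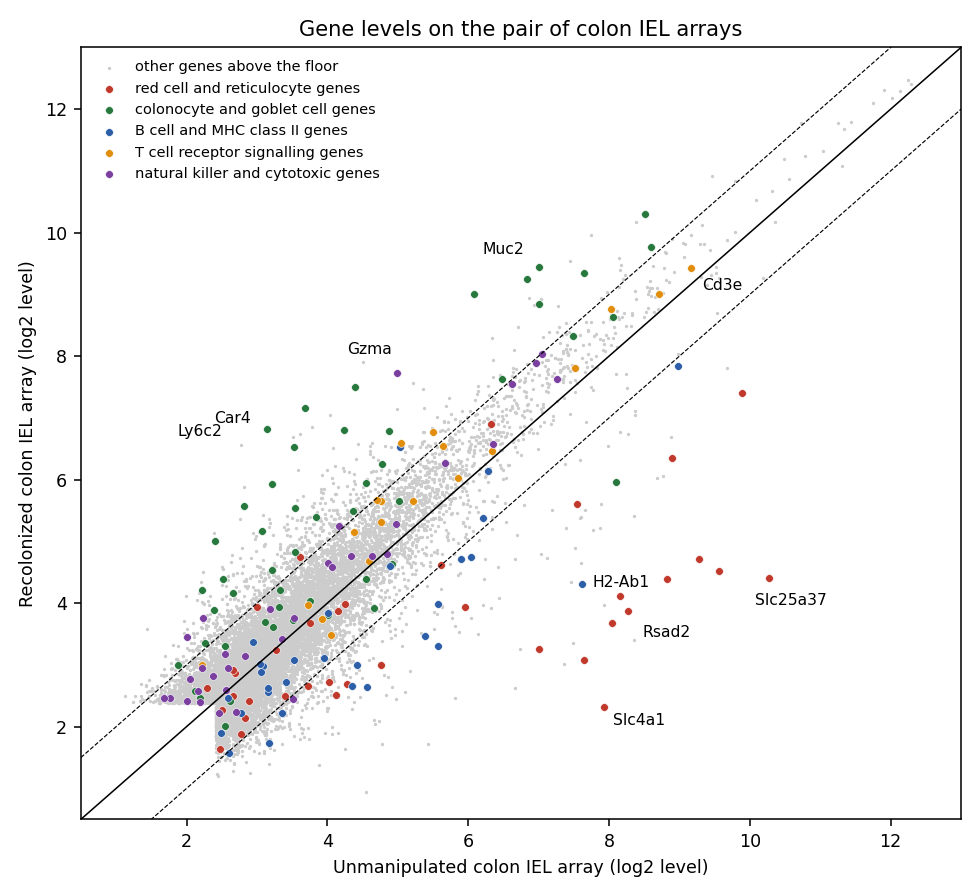
Each point is a gene above the floor, with its log2 level on the unmanipulated colon IEL array (horizontal axis) against that on the recolonized array (vertical axis). Colours mark gene lists, the solid line is equality and the dashed lines are 2-fold. Cd3e lies near equality, colonocyte and goblet cell genes such as Car4 and Muc2 lie above it, and Slc25a37, Slc4a1, Rsad2 and H2-Ab1 lie far below it.

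The largest differences of all were lower levels of red cell genes on the recolonized array. Maturing red cells import iron into mitochondria, complete haem there, and then degrade most of their other proteins with a dedicated set of ubiquitin enzymes. Slc25a37, the mitochondrial iron importer mitoferrin, was at a log2 level of 4.41 on the recolonized array and 10.27 on the unmanipulated array, a difference of −5.85. Slc4a1, the anion exchanger band 3 of the red cell membrane, was at 2.32 and 7.93. The recolonized value of Slc4a1 is below the floor, at the level of the lamina-propria-labelled array (2.32) and near that of small intestinal IEL (2.64). Fech, the enzyme that inserts iron to complete haem, was at 4.52 and 9.56, and Bpgm, which makes the red cell's regulator of oxygen release, at 3.08 and 7.64. For these 4 genes the unmanipulated array was the one that stood apart, since small intestinal IEL were at 5.80, 2.64, 5.08 and 3.86.

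Red cell membrane and iron genes had 22 measured members, 16 of them above the floor. Of those, 6 were lower by 2-fold or more and 1 was higher. The other 2 lower members were Tspan33, at 2.72 against 4.02, and the membrane anchor Ank1, at 2.65 against 3.72, with a further, dim probe set at a difference of 0.01. The higher member was the glucose transporter Slc2a1, which many cell types use, at 4.75 against 3.61, with a further probe set at −0.11. The median over all 22 members was −0.26, against 0.03 over all genes. The list's summed level on the log2 scale was 7.41 on the recolonized and 11.32 on the unmanipulated array, with 7.72 in small intestinal IEL. Transcription factors of red cell precursors, named after their values were seen, were near the low end of both arrays: Klf1 was at 2.26 and 2.51, Gata1 at 1.83 and 1.93, and Nfe2 at 1.88 and 2.15. Hbq1a, a theta globin chosen after its values were seen, was at 1.63 and 4.26. It was the lower one of 2 Hb genes above the floor, of 6 measured, and its paralog Hbq1b was at 2.58 on both arrays. Adult globins and Alas2 were not analysed here.

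The reticulocyte maturation genes showed the same order in more of their members. Of 22 measured, 21 were above the floor, 13 were lower by 2-fold or more and 0 were higher, and the median over the 22 was −1.68. Members of this list were chosen with earlier results of these data known. Fam220a, Isg20, Ube2l6, Ube2o, Dcaf12 and Mkrn1 were themselves among the largest lower levels of all genes. The list's count and median are therefore a description only. Fam220a was at a log2 level of 4.71 on the recolonized array and 9.28 on the unmanipulated array. Ube2o, the ubiquitin-conjugating enzyme that clears proteins from reticulocytes, was at 3.68 and 8.05. Ube2l6, the conjugating enzyme for the ubiquitin-like protein ISG15, was at 3.88 and 8.27. Dcaf12, a substrate receptor of ubiquitin ligases, was at 4.12 and 8.15, though a further probe set of it differed by only 0.11, and the ligase Mkrn1 was at 3.26 and 7.01. Peroxide-removing enzymes followed with smaller differences, such as Gpx1 at 6.35 and 8.90.

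The other haem enzymes did not share the difference of Fech. Of 11 measured haem synthesis genes, all above the floor, 2 were lower by 2-fold or more and 0 higher, with a median of −0.07. Slc25a39, a mitochondrial carrier needed for glutathione import, was the other lower one, at 5.61 against 7.88. Urod was at 3.32 and 4.03, while Alas1, the first enzyme in cells other than red cells, was at 4.14 and 3.63. Among the 20 genes with the largest lower levels, Tent5c, a poly(A) polymerase, was at 3.36 and 7.48, Prxl2a at 3.98 and 7.93, Cdr2 at 2.62 and 6.66, and Tfdp2, a partner of E2F factors, at 3.26 and 6.73. St3gal5, the enzyme that makes the ganglioside GM3, was at 2.46 and 5.81. Gda, guanine deaminase, was at 3.01 and 7.36, and unlike the red cell genes it was higher still in small intestinal IEL, at 8.95. Retnla, a resistin-like protein of macrophages and epithelium, was at 1.72 and 5.43. Tdpoz2 was at 0.95 and 4.54, but its further probe set differed by 0.01. Of the 381 lower genes, 192 (50.4%) were at least 2-fold brighter on the unmanipulated array than on each of the other 3 arrays, against 1.54% of all genes above the floor. Being lower already meets that condition for 1 of the 3 arrays, so the shares are a description only.

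Some interferon-stimulated genes stood among these largest differences, but the median of the list was near 0. Interferons switch on antiviral genes through a short promoter element, the interferon response element. Its core was searched as GAAA, any 2 bases and again GAAA, on both strands in the 250 bases before each gene's start, in RefSeq promoters of GRCm38.p6. The motif was found in 10 of the 23 measured interferon-stimulated genes whose promoter was in the table (43.5%), and in 936 of all 27025 promoters (3.46%). It was in 0 of 15 red cell and 0 of 19 reticulocyte gene promoters, lists too short for 0 to be told apart from that 3.46%. The windows below show it for Rsad2 and Isg15, which were lower on the recolonized array, and for Ifit1 and Ifit3, which were not. Ifit1 and Ifit3 each held a further match that is not printed, in the windows chr19:34640794-34640823 and chr19:34583397-34583426. They are written 5′ to 3′ on each gene's own strand, with the motif or its reverse complement in capitals.
Rsad2, chr12:26456553-26456582, minus strand: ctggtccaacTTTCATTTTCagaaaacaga
Isg15, chr4:156200865-156200906, minus strand, 3 overlapping matches: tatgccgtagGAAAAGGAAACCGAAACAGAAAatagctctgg
Ifit1, chr19:34640775-34640804, plus strand: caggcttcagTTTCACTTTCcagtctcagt
Ifit3, chr19:34583363-34583392, plus strand: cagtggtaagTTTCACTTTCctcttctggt
The promoters of Isg20 and Ube2l6 were in the table without these letters.

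Rsad2, the antiviral enzyme viperin, was at a log2 level of 3.41 on the recolonized array and 8.36 on the unmanipulated array, a difference of −4.95. Isg20, an RNA exonuclease that is also on the reticulocyte list, was at 4.40 and 8.82. Isg15, the ubiquitin-like protein, was at 2.10 and 4.66. All 3 were at least 2-fold brighter on the unmanipulated array than on any other array of the series. Of the other members, 1 passed 2-fold. Ifit1, with a promoter window printed above, was at 3.11 and 3.30, and Ifit3 at 3.22 and 3.02, both named after their values were seen. Zbp1, a nucleic acid sensor, was at 5.40 and 4.45, the RNA sensor Ddx58 at 4.46 and 3.64, Parp14 at 5.18 and 4.41, and Herc6 at 3.38 and 4.23. The only member higher by 2-fold or more was Ifit3b, at 2.42 and 1.34, a near-identical paralog of Ifit3 whose values are uncertain. The list does not hold every gene that answers interferon: Epsti1, given below, is outside it and was at 6.51 and 4.08. Of 31 measured genes, 26 were above the floor, 3 were lower and 1 was higher, with a median over the 31 of 0.08 that turned to −0.13 under the scaling that moved it most. Of the genes above the floor with a promoter in the table, those with the motif had 2 lower and 1 higher of 8, and those without it had 1 lower and 0 higher of 13. The red cell list differed between the same arrays by the summed levels given above, and its part in the values of Rsad2, Isg20 and Isg15 was not tested.

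**Figure D2:**
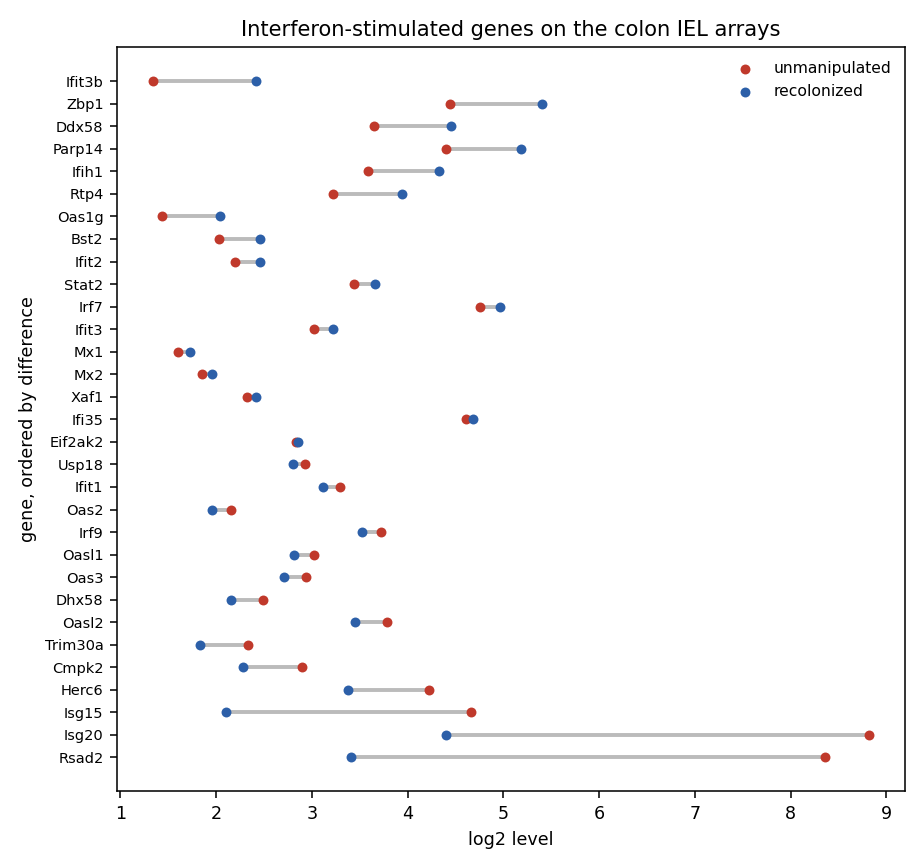
Log2 levels of the 31 measured interferon-stimulated genes on the unmanipulated (red) and recolonized (blue) colon IEL arrays, 1 pooled array each, ordered by difference. Rsad2, Isg20 and Isg15 at the bottom have the widest gaps, and among the other members only Ifit3b, at the top, passes 2-fold.

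Genes induced by interferon gamma, a cytokine of T and natural killer cells, showed no such gap. Of 18 measured members, 13 were above the floor, 1 was higher by 2-fold or more and 0 were lower. The higher share was 7.69%, against 6.04% of all genes above the floor. The median was 0.23, or 0.10 after centring. The higher one was Igtp, a GTPase that attacks intracellular parasites, at 4.22 against 3.11. Irgm2 of the same family was at 3.56 and 2.75, Irf1 at 4.15 and 3.50, and Ido1 at 2.74 and 3.34.

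B cell genes were lower on the recolonized array. Cd79a, a signalling chain of the B cell receptor, was at a log2 level of 3.31 on the recolonized array and 5.57 on the unmanipulated array, and its partner Cd79b at 2.64 and 4.56. Fcmr, the receptor for IgM, was at 3.46 and 5.39. Ms4a1, the B cell surface protein CD20, was at 1.74, below the floor, and 3.17. Small intestinal IEL were brighter than both for each of them, at 7.49 for Cd79a, 6.24 for Cd79b, 6.95 for Fcmr and 6.65 for Ms4a1. Of 22 measured B cell markers, 19 were above the floor, 8 were lower by 2-fold or more and 0 higher, with a median over the 22 of −0.59. The other lower ones were the adaptor Bank1 at 3.001 and 4.41, the BAFF receptor Tnfrsf13c at 4.75 and 6.03, the IgM heavy chain Ighm at 7.84 and 8.97, whose further probe sets differed by −1.66 to 0.26, and the complement receptor Cr2 at 1.57 and 2.61. The summed level of the list was 8.86 against 9.84. Antibody segments went in both directions. Of 20 measured immunoglobulin segments and constant regions, 10 were above the floor, 1 was lower by 2-fold or more and 1 was higher. The lower one was Ighm, already counted among the B cell markers. The median over the 10 above the floor was −0.41, and their differences ran from −1.14 for Ighm to 1.77 for Igkv4-91.

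Plasma cells, the antibody-secreting form of B cells, showed no parallel difference. Jchain, the chain that joins antibodies for export across the epithelium, was below the floor on both arrays, at 2.02 and 2.21. Plasma cell genes had 13 measured members and 11 above the floor, with 2 higher by 2-fold or more and 0 lower. The higher ones were genes of protein folding and secretion that epithelial secretory cells use too, Edem1 at 6.19 and 4.22, with a further, dim probe set at a difference of 0.09, and Sec11c at 5.15 and 4.15. Mzb1, which is more specific to B lineage cells, was at 2.18 and 2.91.

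MHC class II genes, which present antigen to CD4 T cells and are expressed by B cells, dendritic cells, macrophages and some epithelial cells, were lower as well. H2-Ab1, the beta chain of I-A, was at a log2 level of 4.31 on the recolonized array and 7.62 on the unmanipulated array, a difference of −3.31. Its partner H2-Aa differed less, at 4.72 and 5.90, and H2-Eb1 was at 5.38 and 6.21. The I-A chains therefore differed in the same direction by unequal amounts. H2-DMb2, a chain of the peptide-loading protein H2-M, was at 2.65 and 4.36, H2-Ob at 2.22 and 3.35, and the antigen-processing reductase Ifi30 at 3.99 and 5.58. Ctss, the protease cathepsin S, went the other way at 6.53 and 5.03, and it was brighter on the lamina-propria-labelled array, at 8.06. Of 13 measured members 11 were above the floor, 5 were lower and 1 was higher, and the median over the 13 was −0.59. H2-Ab1 was at 9.30 in small intestinal IEL, where the B cell markers were also brightest. The part of B cell content in these values was not tested. MHC class I presentation genes, which nearly all cells express, leaned the other way, with a median of 0.53 over 15 members and 0 past 2-fold in either direction, a median that was 0.20 after quantile normalization and 0.04 after lowess. H2-K1 was at 8.42 and 7.71 and the peptide transporter Tap1 at 5.67 and 4.99.

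Most macrophage and dendritic cell markers were dim on both arrays. Of 22 macrophage and monocyte markers, 13 were above the floor, and 4 were lower and 0 higher. They included the lysozyme Lyz1 at 2.51 and 4.83, the cathepsin Ctsb at 6.78 and 8.15, and the receptor Fcgr3 at 2.44 and 3.51. The remaining one was Mertk at 2.58 and 3.59. Lyz1 is also on the Paneth cell list and was brightest in small intestinal IEL, so it is not specific to macrophages. The other lysozyme of the macrophage list, Lyz2, was above the floor on both arrays and lower by less than 2-fold. Csf1r, the growth factor receptor of macrophages, was at 2.57 and 2.74. Of 15 dendritic cell markers 8 were above the floor and 0 were past 2-fold. Itgax, the integrin CD11c, was at 2.501 and 2.10. Neutrophil markers had 15 measured members and 5 above the floor, with 1 lower, Retnlg at 1.90 and 4.15, and 1 higher, Ly6g. Cxcr2 was at 1.71 and 2.56 and Mmp9 at 2.35 and 3.03, while S100a8 was below the floor at 1.74 and 1.62.

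**Figure D3:**
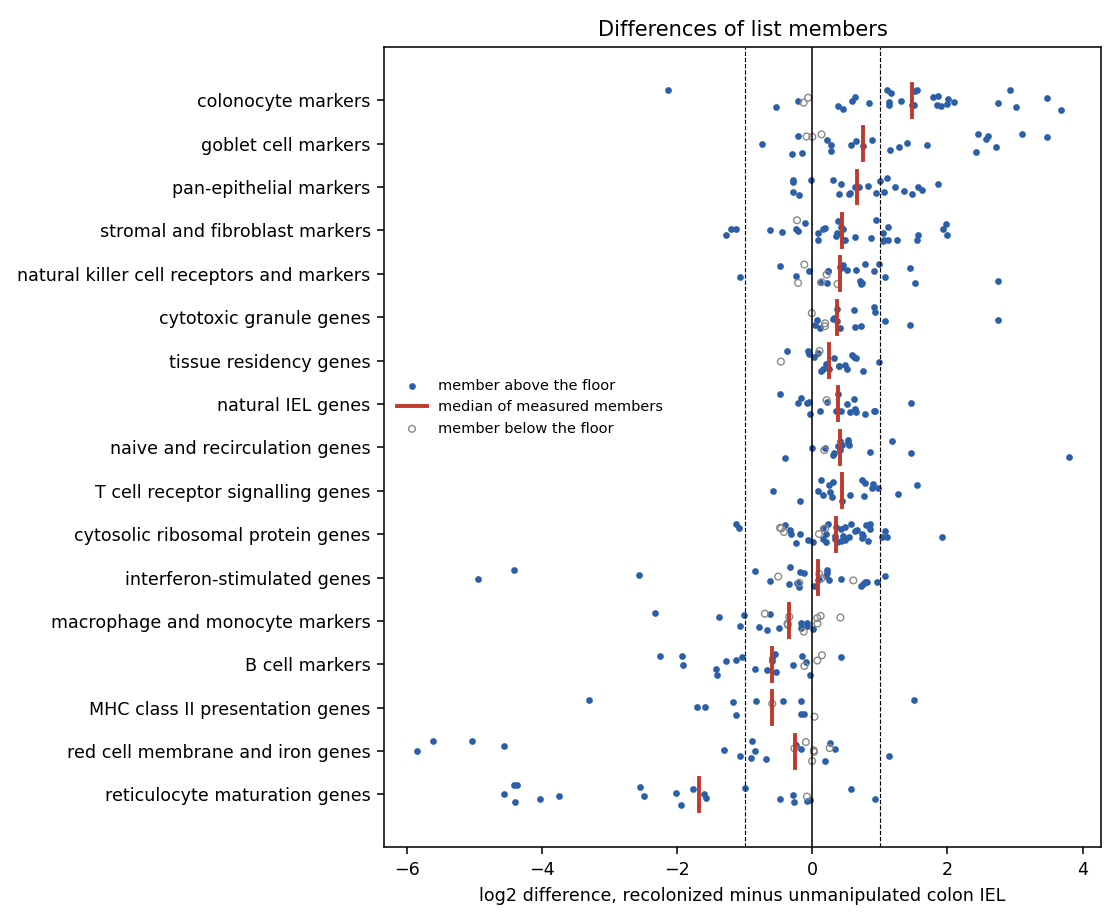
Log2 differences, recolonized minus unmanipulated, of the measured members of 17 gene lists, with filled points above and open points below the floor. The red bar is the median of all measured members, dashed lines mark 2-fold, and vertical scatter within a row has no meaning. The medians run from 1.48 for colonocyte markers to −1.68 for reticulocyte maturation genes; those of the interferon-stimulated, naive and ribosomal genes change sign under a scaling.

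Among lymphocyte genes, Ly6c2 differed most, and it had the largest higher level of any gene above the floor. Ly6C is a surface protein of monocytes and of effector and memory CD8 T cells, and type I interferon is known to raise it on T cells. Ly6c2 was at a log2 level of 6.56 on the recolonized array and 2.77 on the unmanipulated array, a 13.9-fold difference. Small intestinal IEL were at 4.60 and the lamina-propria-labelled array at 3.21, so the recolonized array was the brightest of the 4. Its close relative Ly6c1 was below the floor on both, at 1.75 and 1.57, and is named after its values were seen. Probes shared by such paralogs make single values of the family uncertain. Of 20 measured Ly6 family genes, 14 were above the floor, 3 were higher by 2-fold or more and 0 were lower. Lypd8, an epithelial protein that binds flagella, was at 10.30 and 8.52, and Ly6g at 3.62 and 2.20. Ly6g was also brighter on the lamina-propria-labelled array, at 5.55, and it was the only neutrophil marker above the floor with a positive difference.

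Gzma, a protease of cytotoxic granules, was at 7.73 on the recolonized array and 4.98 on the unmanipulated array, a difference of 2.75. It was brighter in small intestinal IEL, at 10.38. The pore-forming protein Prf1 was at 5.24 and 4.17. Gzmb, the granzyme most used in killing by activated T cells, was nearly level at 4.76 and 4.64 and is named after its values were seen. Other granule genes were higher by less than 2-fold, among them the cathepsin Ctsw at 7.88 and 6.96, Nkg7 at 7.54 and 6.62, and the cystatin Cst7 at 4.65 and 4.01. Of 19 measured cytotoxic granule genes 16 were above the floor, and 3 were higher by 2-fold or more and 0 lower. All 16 leaned towards the recolonized array, and the median over the 19 was 0.36, or 0.24 after centring and 0.26 after lowess. The list's median level was 3.45 on the recolonized and 3.35 on the unmanipulated array. Genes above the floor had a median difference of 0.13 at a mean level of 3 to 4 and of 0.33 at 4 to 6.

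Natural killer receptors gave a mixed picture. Ncr1, the receptor NKp46 of natural killer cells and some innate lymphoid cells, was at a log2 level of 3.76 on the recolonized array and 2.24, below the floor, on the unmanipulated array. Klrg1, a receptor of short-lived effector T cells and mature natural killer cells, was at 3.45 and 2.01. Klrb1c, the marker NK1.1 of this mouse strain, was below the floor on both at 1.73 and 1.59, and Eomes, a transcription factor of natural killer cells, was at 2.41 and 2.004. The chemokine Xcl1 was at 8.03 and 7.05, and Klrc2 at 2.46 and 1.68. Of 28 measured members 23 were above the floor, with 4 higher by 2-fold or more and 1, Fcgr3, lower. The median over the 28 was 0.42.

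**Figure D4:**
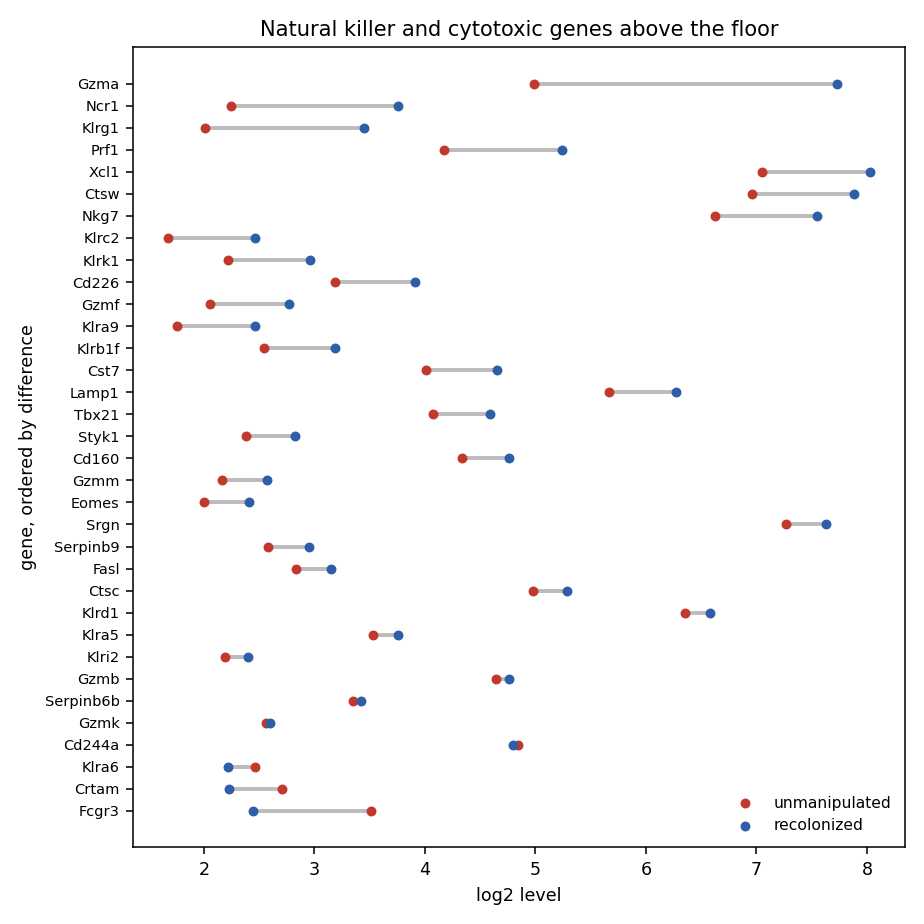
Log2 levels of natural killer and cytotoxic genes above the floor on the unmanipulated (red) and recolonized (blue) arrays, 1 pooled array each, ordered by difference. Gzma, Ncr1, Klrg1 and Prf1 have the widest gaps, Gzmb is nearly level, and Fcgr3 is brighter on the unmanipulated array.

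Genes of short-lived effector and circulating memory T cells overlapped with both lists, since Ly6c2, Gzma, Klrg1 and Prf1 stand among their members. Of 23 measured, 22 were above the floor, and 6 were higher by 2-fold or more and 0 lower, with a median of 0.59 that was 0.26 after lowess. The other higher ones were S100a6, a calcium-binding protein, at 6.07 and 3.92, and the lectin Lgals1 at 6.15 and 4.98. S100a6 is also epithelial and was at 7.85 on the lamina-propria-labelled array, whereas Lgals1 was at 1.71 there. The T cell chemokine Ccl5 was at 9.83 and 9.05, and Id2 at 6.67 and 5.76.

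T cell receptor signalling genes were close on the arrays, with 17 of 19 leaning towards the recolonized one. Thy1, a surface protein of T cells and fibroblasts, was at 6.59 and 5.04, and Lat, the adaptor that links the receptor to its signalling enzymes, at 6.76 and 5.50. These were the 2 members higher by 2-fold or more (10.5%, against 6.04% of all genes above the floor), and 0 were lower. Cd2 was at 5.67 and 4.70 and Cd3d at 6.54 and 5.64. The median was 0.44, against 0.33 over all genes with a mean level of 4 to 6, and it was 0.05 under the scaling that moved it most.

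The CD8 and CD4 co-receptors differed in direction. Cd8b1, the chain found with Cd8a on conventional CD8 T cells, was at 7.52 on the recolonized array and 6.28 on the unmanipulated array. Cd8a was at 7.04 and 6.48. Cd4, which recognises MHC class II, was at 7.70 and 8.09. Only Cd8b1 passed 2-fold among the 12 co-receptor and helper genes, 8.33% against 6.04% of all genes above the floor. Foxp3, which defines regulatory T cells, was at 4.90 and 3.90, a difference of 0.99, while its list of 16 had 0 members past 2-fold and a median of 0.12 that turned negative under a scaling.

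Naive and recirculation genes, those of T cells that travel through lymph nodes, had 17 measured members and 16 above the floor. Of these 3 were higher by 2-fold or more and 0 lower, and the median of 0.41 shrank to about 0 and changed sign under a scaling. Besides Ly6c2 these were Dapl1, a gene of naive and memory T cells, at 4.44 and 2.99, and Klf3 at 6.15 and 4.96. Dapl1 was at 1.87 in small intestinal IEL and 1.59 on the lamina-propria-labelled array. Satb1 was at 6.27 and 5.74 and Bach2 at 4.11 and 3.56. Ccr7, Lef1 and Il7r, which define naive T cells, differed by 0.19, 0.40 and 0.32 and are named here after their values were seen.

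Tissue residency genes and natural IEL genes leaned towards the recolonized array, nearly all by less than 2-fold. Of 21 tissue residency genes 19 were above the floor, 16 of these had a positive difference and 0 were past 2-fold. The median was 0.25, or 0.12 after centring or lowess. Itgae, the integrin that holds IEL to E-cadherin on epithelium, was at 5.47 and 4.82, and Itga1 at 4.84 and 4.33. Among 21 natural IEL genes 1 was higher by 2-fold or more, the signalling chain Fcer1g at 7.02 and 5.56. Their median was 0.38, or 0.25 after centring or lowess. Gut homing and chemokine receptor genes had 2 of 12 above the floor higher by 2-fold or more and 0 lower. They were Itgb7, which pairs with Itgae and with the gut homing integrin alpha 4, at 5.99 and 4.38, and the decoy receptor Ackr2 at 3.48 and 2.33. Cxcr4 was at 5.03 and 5.99.

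Innate lymphoid cell genes and cytokine receptors added a few single genes. Bcl11b, a T cell identity factor that innate lymphoid precursors share, was at 6.02 and 4.07, and Tmem176a at 4.46 and 3.25. With Ncr1 and Klrg1 they were the 4 of 18 innate lymphoid genes above the floor that were higher by 2-fold or more. Of 25 cytokine receptor genes above the floor 3 (12%) were higher and 0 lower. They were Il17ra at 6.02 and 4.71, the shared interleukin 6 family receptor Il6st at 6.93 and 5.65, and Il18r1 at 3.84 and 2.84. The higher share was 6.04% over all genes above the floor, and 352 of 2576 genes at a mean level of 4 to 6 were higher. Inhibitory receptor genes had 0 of 15 past 2-fold, and the exhaustion and checkpoint gene Lag3 was at 3.07 and 2.55.

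Colonic epithelial genes were higher on the recolonized array. Of the 20 genes with the largest higher levels, 10 are on the colonocyte or goblet cell list. Car4, a carbonic anhydrase of the colonocyte surface, was at a log2 level of 6.82 on the recolonized array and 3.14 on the unmanipulated array. Guca2a, the secreted peptide guanylin, was at 7.16 and 3.68. Slc26a3, the chloride and bicarbonate exchanger of the colon surface, was at 5.57 and 2.82, and the membrane mucin Muc3 at 9.004 and 6.08. Cyp2c55 was at 6.54 and 3.52, with a further probe set that differed by −0.27. On the lamina-propria-labelled array these 5 genes were at 8.06 to 11.54, brighter than on either colon IEL array.

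Of 31 measured colonocyte markers, 29 were above the floor, 21 were higher by 2-fold or more and 1 was lower, with a median over the 31 of 1.48. The exception was Car2, a carbonic anhydrase that red cells share with colonocytes, at 5.97 and 8.10. Car1, which both cell types also share, was at 8.33 and 7.49. The other top members were Ceacam20 at 5.16 and 3.07 and the glycosyltransferase B4galnt2 at 5.54 and 3.53. Goblet cell markers had 25 measured and 22 above the floor, with 11 higher by 2-fold or more and 0 lower and a median of 0.76. Muc2, the main mucin of colon mucus, was at 9.45 and 7.00, and a further probe set of it differed by 2.51. Fcgbp, a protein bound to that mucus, was at 7.50 and 4.39, and Spink4 at 6.81 and 4.24.

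Markers shared by all gut epithelial cells differed less. Epcam, the target of the depleting antibody, was at 5.91 and 4.28, Cdh1, E-cadherin, at 6.46 and 4.61 with a further probe set at a difference of −0.19, and Krt8, a keratin, at 7.44 and 6.80. Of 24 pan-epithelial markers, all above the floor, 9 were higher by 2-fold or more and 0 lower, and the median was 0.67, or 0.42 after lowess. Their summed level was 10.29 on the recolonized and 9.59 on the unmanipulated array, against 13.07 on the lamina-propria-labelled array. Of the 751 higher genes, 348 (46.3%) were at a log2 level of 6 or more on the lamina-propria-labelled array, against 14.1% of all genes above the floor. A cut on level favours the higher genes, which were more frequent among bright genes. Without such a cut, that array was the brightest of the 4 for 395 (52.6%) of the higher genes, against 41.3% of all above the floor. Among the 2419 genes that were below the median level on that array, 67 (2.77%) were higher and 140 (5.79%) lower. Among the other 10024, 684 were higher and 241 lower. Ly6c2 and Cd8b1 were not bright there, at 3.21 and 2.67, and Gzma was at 2.36.

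Epithelial genes known to answer bacteria were split. Of 33 measured, 24 were above the floor, and 7 were higher by 2-fold or more and 0 lower, with a median over the 33 of 0.06 that turned to −0.06 under a scaling. Retnlb, a goblet cell protein induced by bacteria, was at a log2 level of 5.01 on the recolonized array and 2.41 on the unmanipulated array. Small intestinal IEL were at 2.001 and the lamina-propria-labelled array at 7.58. Ang4, an antimicrobial ribonuclease, was at 9.25 and 6.83, and here the recolonized array was the brightest of the 4, with 8.23 and 6.42 on the others. Reg4, a lectin of colon secretory cells, was at 5.92 and 3.21, and Pigr, which carries IgA into the lumen, at 7.15 and 4.99. Plac8 was at 5.56 and 3.80 and Reg1 at 2.63 and 1.504. Reg3b and Reg3g, lectins that kill or bind bacteria, differed by −0.28 and 0.01 and are named after their values were seen. The epithelial content of the arrays differed as given above, and its part in Retnlb, Ang4, Reg4 and Pigr was not tested.

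Genes of Paneth cells, which the normal colon lacks, were not uniform. Mptx1, a pentraxin of gut secretory cells, was at 7.05 on the recolonized array, 4.03 on the unmanipulated array and 1.41 in small intestinal IEL. Defa22, an alpha defensin with near-identical relatives, was at 5.36 and 2.76, against 11.63 in small intestinal IEL. Lyz1 was lower, as given above. Of 15 measured members 13 were above the floor, 4 were higher and 1 was lower. Small intestinal enterocyte markers had 3 of 13 above the floor higher, with the peptidase Anpep at 4.66 and 2.63 and the fatty acid binding protein Fabp2 at 6.78 and 4.87.

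**Figure D5:**
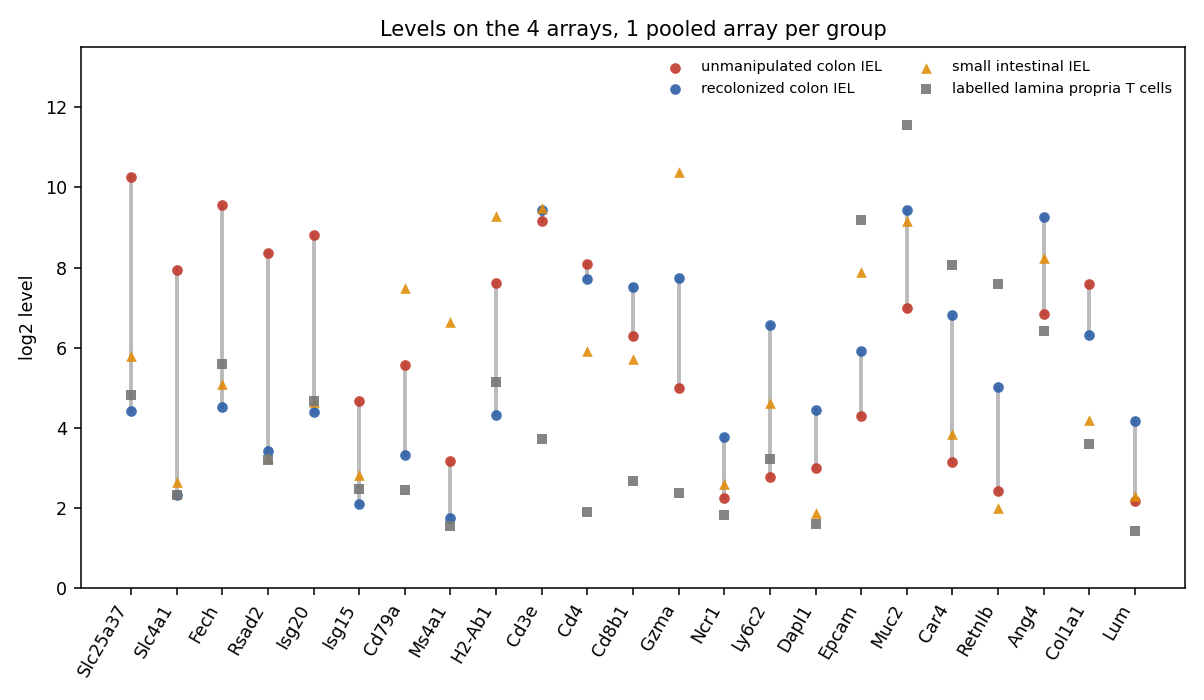
Log2 levels of 23 genes named in the text on all 4 arrays, with a grey bar joining the colon IEL pair. Slc25a37, Slc4a1, Fech, Rsad2 and Isg20 stand apart on the unmanipulated array, Cd79a, Ms4a1 and H2-Ab1 are highest in small intestinal IEL, and Epcam, Muc2 and Car4 are highest on the lamina-propria-labelled array.

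Stromal genes were split by gene rather than by array. The 3 lower members were the fibrillar collagens Col1a1, at a log2 level of 6.31 against 7.59, Col3a1 at 5.59 against 6.79 and Col1a2 at 4.28 against 5.41, while Col14a1 was at 3.41 and 2.53 and the other collagens of the list were within 2-fold. Sparc, a matrix protein that binds collagen, was at a difference of −0.63, and both it and Col14a1 are named after their values were seen. Among the higher members, Lum, a proteoglycan that binds collagen fibrils, was at 4.16 and 2.17, the complement inhibitor Serping1 at 5.42 and 3.43, Timp2, a metalloproteinase inhibitor, at 6.54 and 4.60, and Igfbp5 at 4.07 and 2.51. Of 34 measured stromal and fibroblast markers 33 were above the floor, and 11 were higher by 2-fold or more and 3 lower, with a median of 0.44. These genes were dimmer on the other arrays, where Lum was at 2.30 and 1.42 and Serping1 at 2.34 and 1.79. Ogn, Efemp1 and Cd248, further mesenchymal genes chosen after their values were seen, were at 5.43 and 3.08, 5.37 and 3.17, and 5.31 and 3.18. Smooth muscle genes had 0 higher and 2 lower of 16 above the floor, Acta2 at 5.02 and 6.15 and Tpm2 at 2.25 and 3.26. Endothelial genes had 0 higher and 1 lower of 11, with Pecam1 at 5.64 and 5.39.

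Some of the 20 largest higher levels were on neither the colonocyte nor the goblet cell list. Tma7 was at 6.68 and 3.51, with a further probe set at a difference of 0.66. Cycs, cytochrome c, was at 6.74 and 3.61, but its other probe sets differed by −0.84 to 1.17, so the gene has no settled direction. Gnai3, a G protein subunit, was at 6.15 and 3.59, Tm4sf20 at 5.88 and 2.82 with 8.39 on the lamina-propria-labelled array, and Epsti1, an interferon-responsive gene, at 6.51 and 4.08. The recolonized array was at least 2-fold brighter than each of the other 3 arrays for 94 genes, 12.5% of the 751 higher ones and 0.755% of all above the floor, a share to which being higher already contributes, and Ly6c2, Dapl1, Klrg1, Thy1 and Lum were among them.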

How the data were processed

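RNA was extracted with Trizol and labelled with biotin, per the labels' protocols. The authors deposited log2 levels, and the submitters' processing notes name Affymetrix Expression Console. Which version, summarization and normalization were used is not given in the sources used here. The platform's gene table gave 1 symbol for 23521 of 41345 probe sets, several for 1814 and no entry for 16010. Gene IDs of 23328 matched a RefSeq table of GRCm38.p6. A gene's value came from its brightest 1-symbol probe set by the mean of 4 arrays, and 1082 genes had more than 1. A gene was above the floor at or above the 50th percentile on the brighter array of the pair, and counted at 2-fold. With 1 array a group there was no test, and the number of arrays limits the precision. Genes are named when among the 20 largest differences in a direction (leaving aside receptor segments, chemoreceptors, small RNAs and unnamed genes), among the 8 largest of a described list, among marker genes set by rule, or nearest the threshold. Others are said to be chosen after their values were seen. The 62 lists held 1211 genes, 1061 of them measured. Members and lists were chosen with earlier results of these data known. Summed levels add the linear values of a list. Promoters came from RefSeq. The floor and 2-fold calling were tested on simulated data with planted differences. List medians, rescalings and the motif search were not. Alternatives were floors at the 25th and 75th percentile and none, 1.5-fold and 3-fold thresholds, the mean of probe sets, quantile normalization, centring, and lowess with a span of 0.3. Python 3.11.15, pandas 2.3.3, numpy 2.4.6, statsmodels 0.14.6 and matplotlib 3.10.9 were used.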

Additional observations from a re-analysis of the deposited data

Results flagged for a closer look

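Probe sets that name no single gene also differed between the arrays and entered no count of genes. Of 1814 probe sets with several symbols, 885 were above the floor, and 83 were at least 2-fold higher and 40 at least 2-fold lower on the recolonized array. Of 16010 probe sets that were not in the gene table, 6112 were above the floor, with 1087 higher and 899 lower. That is 32.5% of them in either direction, against 9.1% of named genes. The most distant values were a log2 level of 1.48 on the recolonized and 8.91 on the unmanipulated array for probe set 17433942, and 8.99 against 2.06 for probe set 17516251. No gene name, and no cause, was sought for these values.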

How the results depend on the processing

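The count of higher genes was 2402 at a 1.5-fold threshold, 146 at 3-fold and 437 after the lowess correction, and that of lower genes 1298 at 1.5-fold, 109 at 3-fold and 766 after quantile normalization. The cause of the moves under lowess and quantile normalization was not tested. The other settings kept both counts within 1.5 times, from 508 to 754 higher and 286 to 546 lower. An alternative added after seeing the data, over genes under the median of the lamina-propria-labelled array, left 67 higher and 140 lower. Of 184 named genes past 2-fold, 156 stayed past it after lowess, 168 after centring, 170 after quantile normalization and 175 with the mean of probe sets, and 0 changed sign. Under a scaling, 15 of 62 list medians changed sign. No paired analysis was possible because each group had 1 array. For the same reason no replicate could be left out. Dim genes have compressed differences.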

Other observations

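Immediate early genes, which cells switch on within minutes of a stimulus, leaned towards the recolonized array. Of 27 measured genes, all above the floor, 6 were higher by 2-fold or more and 0 lower, with a median of 0.35, or 0.22 after lowess. Btg2 was at a log2 level of 5.67 on the recolonized and 3.57 on the unmanipulated array, the RNA-binding protein Zfp36 at 5.39 and 3.50, and the epithelial factor Klf4 at 5.62 and 3.81. Jun was at 4.05 and 3.04. All 4 were brighter on the lamina-propria-labelled array, at 7.20 to 8.97. Among NF-kB target genes, 2 of 17 above the floor were higher (11.8%, against 6.04% of all genes above the floor) and 0 lower. They were Traf1 at 4.95 and 3.55 and the inhibitor Nfkbia at 5.38 and 4.24.

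Metabolic lists gave further differences. Cholesterol synthesis genes had 4 of 14 above the floor higher by 2-fold or more and 0 lower, with the epoxidase Sqle at 3.52 and 2.10, the regulator Srebf2 at 5.28 and 3.94, Msmo1 at 4.05 and 2.73, and Hmgcs1 at 5.15 and 4.13. Xenobiotic and bile acid genes had 6 of 21 higher and 0 lower, among them the esterase Ces2a at 4.02 and 2.22, Gstp1 at 6.01 and 4.56 and the efflux pump Abcb1a at 5.77 and 4.48. The fatty acid transporter Cd36 was lower, at 1.85 and 3.53. Cell cycle genes had 0 of 29 higher and 2 lower, Ube2c at 2.70 and 4.28 and Nusap1 at 2.81 and 4.32. Ube2c is also on the reticulocyte list and was counted among its lower members. The proliferation marker Mki67 was at 3.49 and 4.18.

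Pancreatic acinar genes had 4 of 11 above the floor higher and 0 lower, with the chymotrypsinogen Ctrb1 at 5.13 and 2.39 and colipase (Clps) at 5.34 and 3.87. Platelet markers had 2 of 6 above the floor higher and 0 lower, the chemokine Ppbp at 5.13 and 2.94 and Gp9 at 4.35 and 3.21, while Treml1 was at 2.20 and 2.92 and Tubb1 at 2.42 and 2.92. Pf4, a platelet gene named after its values were seen, was below the floor on both. Xist, the RNA that silences an X chromosome in females, was at 5.94 and 4.09. The Y-linked Eif2s3y was at 1.95, below the floor level of 2.39, and 2.64, not far above it. The study's text gives male and female mice in equal number, and the sex of the pooled mice was not tested. Of 7 measured sex-linked genes 5 were above the floor, with 2 higher by 2-fold or more and 0 lower. Eif2s3y, within 2-fold, was the only 1 of the 5 with a negative difference. The list's median was 0.15, and −0.12 after lowess.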
